A study of Mus musculus with 2 samples.

Results

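Short RNA fragments of the C/D box small nucleolar RNAs were examined in 2 small RNA libraries of mouse mesenchymal stem cells (MSCs), fibroblast-like cells of adult bone marrow. The genes were all those in the GENCODE M21 annotation (GRCm38) whose symbol begins with Snord, 99 of 55450 annotated genes, and a fragment was a read of at least 18 nt that lay inside such a gene in sense and without mismatch. One library came from immortalized clonal C57BL/6 MSCs with the Dicer f/f genotype (called f/f here), in which the labels treat Dicer as wild type. The other came from immortalized clonal Dicer -/- MSCs of the same strain (called null here). Both were grown in alpha-MEM with 10% fetal bovine serum close to confluence, and RNA of 15 to 50 nt was cut from a gel before library preparation. Dicer is the ribonuclease that cuts miRNA precursors into mature miRNAs. The f/f library held 9943989 reads and the null library 6291599 reads. The labels describe the lines as clonal and do not say how many each library holds. With 1 library per genotype no difference has a replicate check, no test was made and no p-value is given, and a difference between the genotypes cannot be told apart from one between the clones, cultures or library preparations. Intervals are at the 95% level and cover the counting error of reads alone. PCR copies were counted as separate reads, so the intervals can be too narrow.

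C/D box snoRNAs are short nuclear RNAs that carry a C box near the 5′ end and a D box near the 3′ end. The boxes sit next to a stem formed by both ends of the RNA, bind a set of shared proteins and hold the methylating enzyme fibrillarin in place. Most family members guide 2′-O-methylation of ribosomal RNA or of U6 small nuclear RNA, and a few are needed for the cutting of the ribosomal precursor. In mammals most are cut out of introns of other genes, often of genes for ribosomal proteins or for non-coding host RNAs. The libraries could show only pieces of these RNAs, because the annotated genes ran from 64 to 238 nt (median 84 nt) and the longest read was 36 nt.

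The gene set matched its name. The C box letters TGATGA were found in 75 of the 99 Snord genes, and in the first 20 nt of 70. The D box letters CTGA lay in the last 20 nt of 97, and 68 (68.7%) had both motifs in those windows, searched on the sense strand. Among 42 genes of the other snoRNA class, the H/ACA box genes named Snora, 0 had the C box letters, 5 had CTGA in their last 20 nt and 0 had both. On the same strand, 96 of the 99 lay inside another gene, and 37 of these inside an exon of 1 of its annotated transcripts. Snord104, Snord118 and Snord13 had no such host.

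The fragments that hold most of the reads are shown within their genes. Each line is the whole annotated gene, 5′ to 3′, from the annotation's transcript sequence, and capitals mark the read that was commonest in the f/f library. In these 7 genes the same read was also the commonest in null.
Snord43: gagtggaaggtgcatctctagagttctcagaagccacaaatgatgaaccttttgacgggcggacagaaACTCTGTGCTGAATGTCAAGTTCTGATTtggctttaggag
Snord2: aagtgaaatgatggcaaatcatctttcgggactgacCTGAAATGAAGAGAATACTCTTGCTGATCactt
Snord69: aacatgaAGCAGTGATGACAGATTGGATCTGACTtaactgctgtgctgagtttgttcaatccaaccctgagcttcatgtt
Snord60: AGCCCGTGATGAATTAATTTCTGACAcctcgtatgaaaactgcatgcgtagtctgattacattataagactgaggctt
Snord118: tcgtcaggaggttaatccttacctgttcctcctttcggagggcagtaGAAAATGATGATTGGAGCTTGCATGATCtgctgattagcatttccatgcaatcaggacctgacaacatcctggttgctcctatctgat
Snord80: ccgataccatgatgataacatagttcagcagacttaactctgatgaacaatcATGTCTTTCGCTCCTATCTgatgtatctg
Snord50a: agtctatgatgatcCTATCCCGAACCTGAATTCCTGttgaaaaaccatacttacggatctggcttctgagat

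These genes show the arrangements seen across the family. The Snord43 and Snord2 reads ran to just past the D box and left the 5′ portion of the gene nearly uncovered. The Snord69, Snord60 and Snord118 reads held the C box. The Snord80 and Snord50a reads held neither box.

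Snord fragments made up 35561 f/f reads and 128627 null reads, which is 0.358% and 2.04% of the libraries. In CPM, which are read counts scaled to an equal total over all reads of each library, the level was 3576 CPM in f/f against 20440 in null, 5.72-fold higher in null (5.65 to 5.79). The targeted gene could not be checked, since the deleted exon is not named in the labels: 26 f/f and 66 null reads matched Dicer1 transcripts. The composition of the libraries moved with this value: reads in annotated miRNA hairpins were 59.6% of f/f and 2.17% of null. Counted per read outside miRNA hairpins the Snord ratio was 2.36, and per read of the other snoRNA and snRNA genes it was 1.55. Reads of H/ACA genes went the other way, 9488 in f/f and 5049 in null, a ratio of 0.841 (0.813 to 0.870). This ratio rests heavily on H/ACA reads of 27 nt, with 5493 in f/f and 2069 in null. At other lengths the H/ACA ratio lay on both sides of 1, for example 0.351 at 22 nt and 1.69 at 26 nt. Reads in antisense to the Snord genes, the background of the matching, numbered 0 in f/f and 2 in null.

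Of the 99 genes, 81 had reads in each library. The remaining 18, which were the 17 copies of Snord116 in Snhg14 and Snord107, had none in either, a count of 0 that allows up to 0.302 CPM in f/f, and 0.477 in null. At least 100 reads over both libraries together were seen for 72 genes, and the other 9 had fewer. Of these 72, 63 (87.5%) were more than 2-fold higher in null, 9 were within 2-fold and 0 were lower by more than 2-fold. Over all 7160 annotated genes with that many reads, 79% were more than 2-fold higher in null and 6.54% more than 2-fold lower, so the Snord share lay close to the background. The median log2 difference was 2.35 for the Snord genes and 2.13 for all. Among genes with at least 1000 reads, 32 of 36 Snord genes were higher and 0 lower, against 61.5% and 30.8% of all. Genes of miRNA hairpins, a class with a null to f/f ratio of 0.0364 in CPM, were not taken out of these sets of all genes. Their number there was not counted, so the contrast does not set the Snord genes apart.

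The count moved with the scale. Per read that matched any transcript, all 72 were higher, against 93% of all genes, with 3.56% lower. Per read outside miRNA hairpins, 38 of 72 Snord genes were more than 2-fold higher in null and 3 lower, against 44.3% and 14.1% of all genes. Per read of other snoRNA and snRNA genes, 19 were higher, 46 within 2-fold and 7 lower, against 17.1% higher and 20.1% lower among all genes. Among the 53 distinct genes with at least 100 reads in each library, the null to f/f ratio in CPM ran from 0.645 to 20.1, with quartiles at 3.30 and 7.33 and a median of 4.997. This spread within the family does not depend on which total the reads are divided by.

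**Figure D1:**
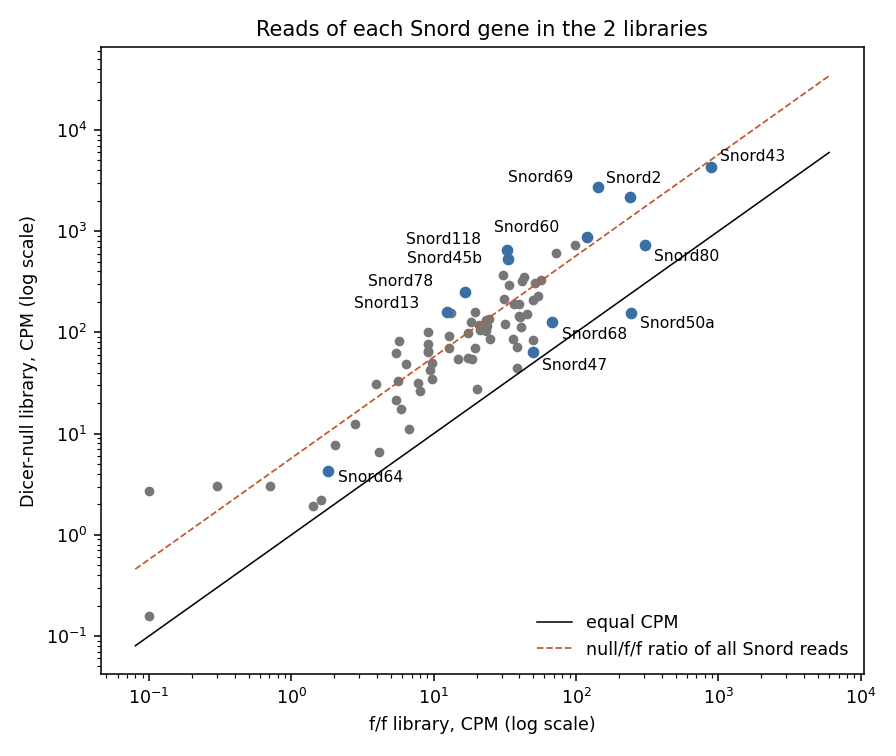
Level of each Snord gene with reads in both libraries, f/f on the x axis and null on the y axis, in CPM on log axes, 1 point per gene. The solid line marks equal levels and the dashed line the 5.72-fold ratio of all Snord reads. Most points lie between or near the lines, Snord69, Snord118, Snord45b and Snord78 lie above the dashed line, and Snord50a lies below equality.

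A few genes held most of the reads. The 10 leading genes took 67.3% of the f/f Snord reads and 67.1% of the null ones. Snord43, which lies in the Rpl3 gene on the minus strand of chromosome 15 (80082847 to 80082954), gave 8777 f/f and 27312 null reads. Its level was 883 CPM in f/f against 4341 in null, a ratio of 4.92 (4.80 to 5.04). It guides methylation of 18S ribosomal RNA, and the annotation lists it as a miRNA gene, although the symbol names a snoRNA. It was the leading gene in both libraries.

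Snord2, in Eif4a2 on the plus strand of chromosome 16 (23108953 to 23109021), gave 238 CPM in f/f against 2194 in null, a ratio of 9.23 (8.84 to 9.65). Snord69, a 28S guide in Gnl3 on the minus strand of chromosome 14 (31014287 to 31014366), gave 142 CPM in f/f from 1412 reads and 2709 CPM in null from 17045 reads. Its ratio was 19.1 (18.1 to 20.2). Snord69 was thus below Snord2 in f/f and above it in null, and the difference was larger than the counting error of either gene.

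Snord118 had the highest ratio of the 53. It is the U8 RNA, needed for the processing of 5.8S and 28S ribosomal RNA, and lies on the plus strand of chromosome 11 (69073427 to 69073561). It gave 324 f/f and 4125 null reads, 32.6 and 656 CPM, a ratio of 20.1 (17.97 to 22.6). Snord13, the U13 RNA that acts on the 18S precursor, lies on the minus strand of chromosome 8 (31149864 to 31149967). It gave 12.5 CPM in f/f against 161 in null, a ratio of 12.9 (10.7 to 15.7). Snord104 (chromosome 11, 106500993 to 106501062, plus strand) had 72.7 and 608 CPM, a ratio of 8.37 (7.73 to 9.07). The 3 genes without a host were thus all above the median ratio of 4.997, and Snord118 and Snord13 were among the 5 highest.

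Of the genes in hosts, Snord45b and Snord78 were also among the 5 highest ratios. Snord60 and Snord52, named for their read numbers, lay near the upper quartile of 7.33. Snord45b, an 18S guide in Rabggtb (chromosome 3, 153910563 to 153910633, minus strand) had 33.5 CPM in f/f against 530 in null, a ratio of 15.8 (14.1 to 17.8). Snord78, a 28S guide in Gas5 (chromosome 1, 161036984 to 161037049, plus strand) had 16.6 and 249 CPM, a ratio of 15.0 (12.8 to 17.8). Snord60 (chromosome 17, 24528476 to 24528553, plus strand) had 120 and 869 CPM, a ratio of 7.23 (6.79 to 7.70), and Snord52 (chromosome 17, 34950952 to 34951017, minus strand) 98.6 and 723 CPM, a ratio of 7.33 (6.84 to 7.87).

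At the low end, Snord50a and Snord50b were the genes with at least 100 reads in each library that had a ratio below 1. Both lie in Snhg5 on the minus strand of chromosome 9 (88521529 to 88521600, and 88521797 to 88521868) and guide 28S methylation. Snord50a gave 2400 reads in f/f, at 241 CPM, and 980 in null, at 156 CPM, a ratio of 0.645 (0.599 to 0.696). Of its reads, 97.8% in f/f and 97.1% in null lay in Snord50b too, so these are not separate measurements. Reads of Snord50a alone numbered 53 in f/f and 28 in null, a ratio of 0.835. Per read of other snoRNA and snRNA genes, Snord50a was 5.73-fold lower in null.

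Snord47 in Gas5 (chromosome 1, 161038082 to 161038158, plus strand) had 49.5 CPM in f/f against 63.4 in null, a ratio of 1.28 (1.12 to 1.47). Snord12 in Zfas1 (chromosome 2, 167065276 to 167065365, plus strand) had 38.3 and 44.8 CPM, a ratio of 1.17 (0.999 to 1.37). Snord15b in Rps3 had 20.01 and 27.3 CPM, a ratio of 1.37 (1.11 to 1.68), and Snord68, an abundant 18S guide, 67.8 and 128 CPM, a ratio of 1.89 (1.70 to 2.09). Per read, the levels of Snord47, Snord12 and Snord15b lay close together in the libraries, and Snord68 was nearly 2-fold higher in null.

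By function, the ratios overlapped from list to list. All 7 genes of the processing snoRNAs (Snord118, Snord13, Snord22 and 4 copies of Snord14) passed 100 reads, and 6 were more than 2-fold higher in null, against the 79% of all genes. Their summed level was 157 CPM in f/f against 1229 in null, and their median ratio was 4.75. Within the list, Snord22 had a ratio of 5.70, and the U14 copies Snord14c and Snord14d, which act on 18S processing and lie in Hspa8, had ratios of 4.21 and 4.75 with many reads in common. On reads of 1 Snord gene only these were 2.20 and 2.63.

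Of 20 guides of 18S methylation, 17 passed 100 reads and 16 were more than 2-fold higher in null, against 79% of all genes, with a median ratio of 5.52. Examples were Snord33 in Rpl13a (24.5 and 135 CPM, ratio 5.52), Snord32a in the same host (9.15 and 64.2 CPM, ratio 7.02), and Snord42b and Snord4a in Rpl23a (ratios 5.21 and 5.70). Of 26 guides of 28S methylation, 25 passed and 20 were higher, a share like the 79% of all genes, with a median ratio of 4.06. This list counts both annotated entries of Snord80. Their sums moved by nearly the same factor, 5.21 for the 18S list and 5.53 for the 28S list. The list of 28S guides held both the lowest ratio, Snord50a, and the second highest, Snord69.

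The guides of U6 methylation were scarce. Of 3 such genes only Snord67 passed 100 reads, with 5.43 CPM in f/f against 21.3 in null, a ratio of 3.92 (2.84 to 5.48). Of 19 genes of the Prader-Willi region, an imprinted locus whose snoRNAs are known from neurons, 1 had reads: Snord64 with 18 in f/f and 27 in null, a ratio of 2.37 (1.26 to 4.57). The annotation held 0 Snord genes of the families from the imprinted Dlk1-Dio3 region.

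Genes of 1 host could differ widely or lie close together. Gas5, a non-coding host RNA, holds Snord47, Snord78 and Snord80, with ratios of 1.28, 15.0 and 2.39. Snord80, which is annotated as 2 overlapping genes that share all reads, gave most of the Gas5 reads with 303 CPM in f/f against 724 in null. In the non-coding host 1810032O08Rik, Snord1a had a ratio of 11.1, Snord1b one of 5.47 (4.48 to 6.71) and Snord1c one of 4.997 (4.27 to 5.87). In 2410006H16Rik, Snord65 had 40.7 and 113.3 CPM, a ratio of 2.78 (2.46 to 3.15), while Snord49a had 2.93 (2.44 to 3.52) and Snord49b 2.39 (2.09 to 2.74), so the 3 genes of this host had overlapping intervals. The counting intervals of Snord47, Snord78 and Snord80 do not overlap.

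Length separated the fragments. Reads of 24 to 35 nt were 57.6% of the f/f Snord reads against 72.4% in null. Reads of 18 to 23 nt, the range that holds miRNAs, were 28.7% in f/f (28.2 to 29.2) and 11.99% in null (11.8 to 12.2). In CPM the 24 to 35 nt reads were 7.19-fold higher in null (7.08 to 7.30) and the 18 to 23 nt reads 2.39-fold (2.33 to 2.45). Reads of 36 nt, which are cut off by the read length, were 13.7% and 15.6%, a ratio of 6.51. Neither library held a Snord read of 34 or 35 nt, so the reads of the 24 to 35 nt class end at 33 nt. The cause of this gap was not tested. Among H/ACA reads, those of 18 to 23 nt were 20.3% in f/f and 17.4% in null, those of 24 to 35 nt 74.3% and 63.3%, and those of 36 nt 5.396% and 19.4%. Their longer class thus moved the opposite way to that of the Snord reads, but most of it was reads of 27 nt (ratio 0.595). These were 5493 of the 7049 f/f and 2069 of the 3195 null H/ACA reads of 24 to 35 nt. At other lengths of the class the H/ACA ratio lay on both sides of 1, from 0.446 at 32 nt to 1.69 at 26 nt. The direction of the class therefore rests on the 27-nt reads.

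The longer class peaked at 27 to 29 nt, with 41.6% of the f/f and 54.2% of the null Snord reads. Of the individual lengths from 18 nt, 22 nt had the smallest ratio, 1.44 (1.36 to 1.52), and 32 nt the largest, 17.3 (15.5 to 19.3). A single fragment weighs on each: most of the 22-nt f/f reads were the Snord50a fragment, and 2625 of the 3984 null reads of 32 nt were 1 fragment of Snord45b. Without Snord50a and Snord50b the 18 to 23 nt class had 23.7% of f/f and 11.3% of null, a ratio of 2.91. By gene, the 18 to 23 nt share was lower in null in 44 of the 54 annotated genes with at least 100 reads in each library, with a median of 22.9% in f/f and 12.1% in null.

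**Figure D2:**
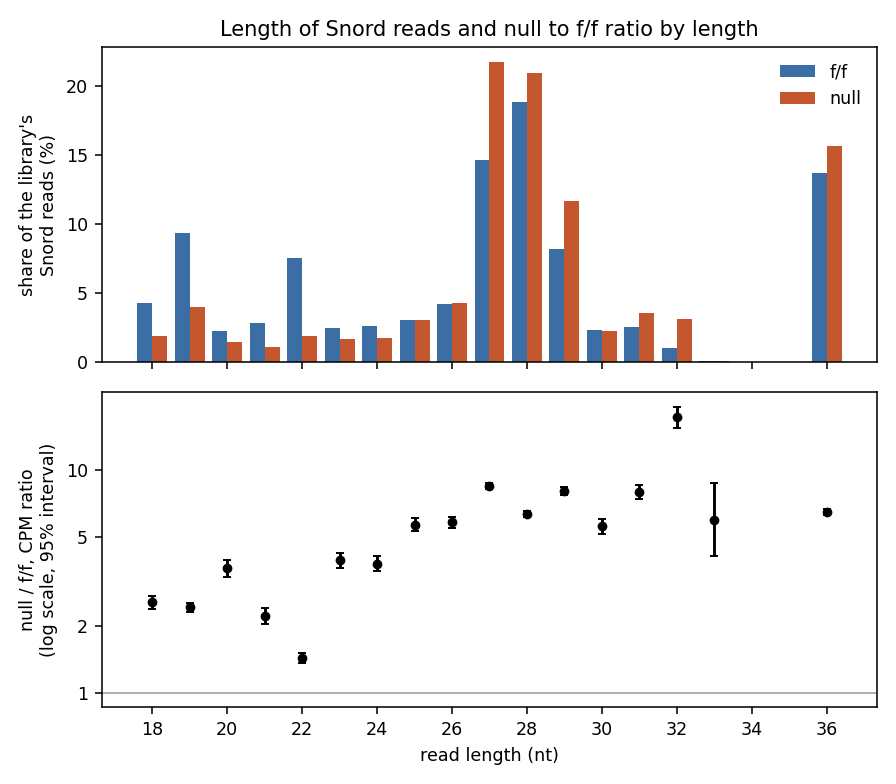
Length of Snord reads. The upper panel gives each length's share of the Snord reads of the f/f and null libraries in percent, and the lower panel the null to f/f ratio in CPM on a log axis with the 95% interval of counting error. Reads of 27 to 29 nt lead in both libraries, and the ratio is lowest at 22 nt (1.44).

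Counted within each length class, 32 of 50 Snord genes with at least 100 reads of 18 to 23 nt were more than 2-fold higher in null and 1 was more than 2-fold lower, against 77.3% and 8.3% of all genes. In reads of 24 to 35 nt it was 53 of 58 higher and 0 lower, against 93.1% and 4.55%. The median log2 difference was 1.56 for the Snord genes in the short class (1.90 for all genes) and 2.58 in the longer class (2.75 for all genes).

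In the leading genes the fragments came largely from the same places in both libraries. In Snord43 the 28-nt read at positions 69 to 96 made up 4443 of the 8777 f/f reads against 14282 of the 27312 in null, with a ratio of 5.08. In Snord2 the 29-nt read at positions 37 to 65 gave 73.7% of the f/f and 72.9% of the null reads. In Snord118 the 28-nt read at positions 48 to 75 gave 63.9% and 57.6%, and the end portion of the gene was almost uncovered. Pooled over the 54 annotated genes, the commonest f/f start position took 56.3% of the f/f reads and 63.6% in null. The commonest f/f end position took 67.4% and 70.8%. By gene, the median share at the commonest f/f start was 45.9% in f/f and 54.0% in null. At the commonest f/f end the median was 54.2% in f/f and 43.6% in null, so by gene it was lower in null. The commonest read was the same in both libraries in 35 of the 54, the commonest start in 42 and the commonest end in 34.

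**Figure D3:**
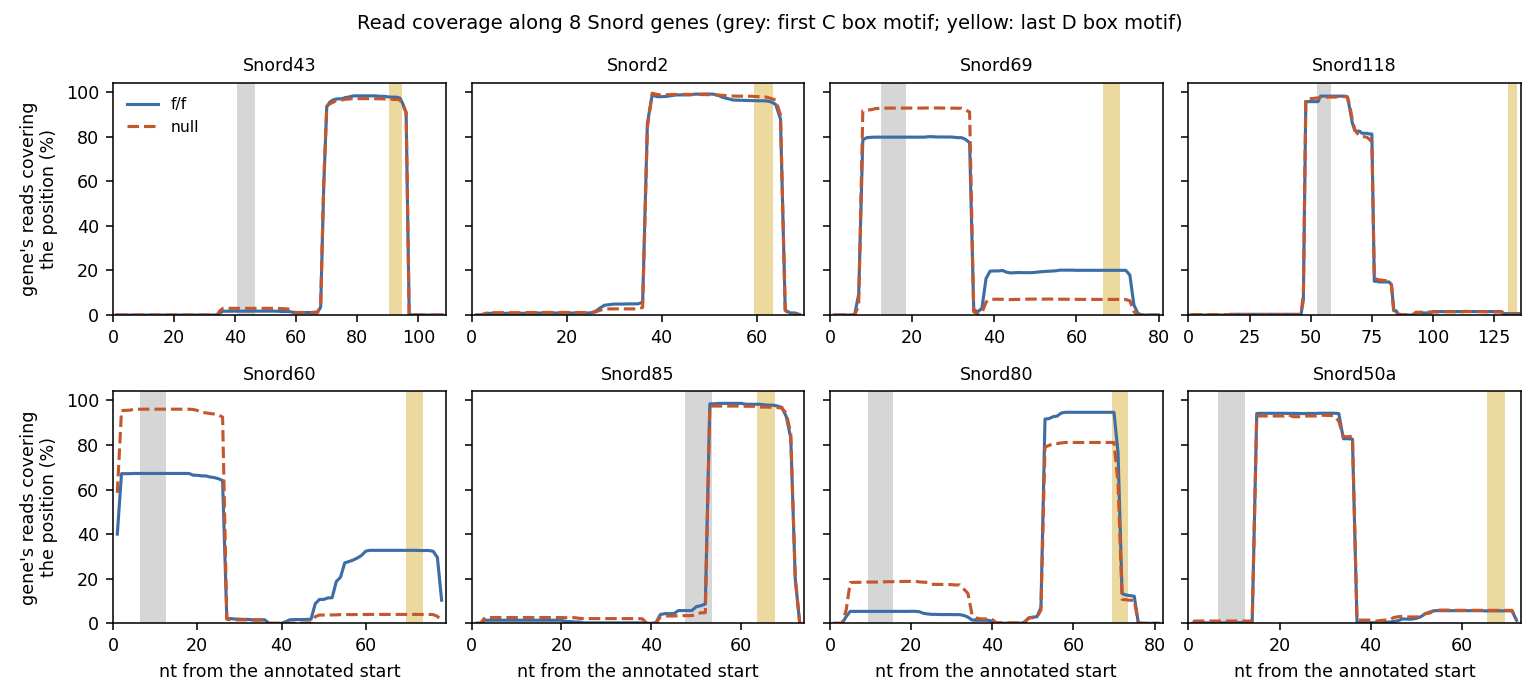
Share of a gene's reads that cover each position, in percent, against the distance in nt from the annotated start, for 8 Snord genes in f/f (solid) and null (dashed). Grey and yellow bands mark the first TGATGA and the last CTGA. Snord43, Snord2, Snord118, Snord85 and Snord50a have nearly the same profile in both libraries, while in Snord60 and Snord69 the 3′ portion holds less of the null reads.

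Reads with a box mostly started or ended at a few distances from it. Only reads wholly inside the annotated gene were counted, so in some genes the annotated ends cap these distances. In Snord60 the C box starts at position 7, so no read could start more than 6 nt before it. Snord104 is 70 nt long and its D box starts at position 65, so no read could end more than 2 nt after it. Of the reads that held the C box and not the D box, 52.2% in f/f and 67.4% in null started 5 nt before it, and 43.3% and 29.1% started 6 nt before it. The pooled share at 5 nt leans on Snord69: its 27-nt read gave 941 of the 3418 f/f and 14534 of the 30383 null reads that started there. Both distances were seen in several genes. Among genes with at least 20 such reads, the commonest start was 5 nt before the box in 11 of 33 in f/f and 17 of 46 in null. It was 6 nt before the box in 20 and 27, so by gene 6 nt was the commoner distance in both libraries. Of the reads that held the D box and not the C box, 72.2% in f/f and 78.96% in null ended 2 nt after it. Among genes with at least 20 of these, the commonest end was 2 nt after the box in 41 of 69 in f/f and 38 of 68 in null. Both boxes are found here as literal letters, the first TGATGA and the last CTGA of a gene, which can miss the true box in a gene with a variant.

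**Figure D4:**
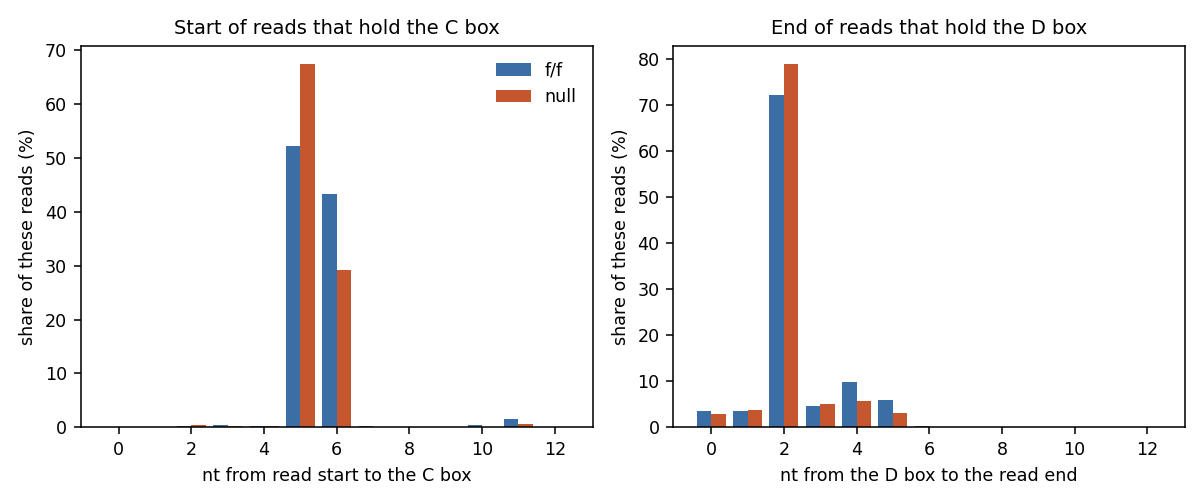
Distance in nt from the read start to the C box (left, reads with the C box only) and from the D box to the read end (right, reads with the D box only), as a share of these reads in each library in percent. Most starts fall 5 or 6 nt before the C box and most ends 2 nt after the D box, in both libraries. Reads past the annotated gene ends were not counted, which caps these distances in some genes.

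The side of the gene differed between the libraries. Among genes with both boxes, C box reads were 21.95% of those in f/f (21.5 to 22.4) and 45.8% of those in null (45.5 to 46.1), 10.9-fold higher in null in CPM (10.6 to 11.2). D box reads were 56.2% of f/f and 45.9% of null, 4.26-fold higher (4.19 to 4.34). Reads with neither box were 21.7% and 8.22%, a ratio of 1.98. With Snord43, Snord69 and Snord2 left out, C box reads held 26.9% in f/f against 52.6% in null, and D box reads 40.5% against 32.7%. The C box side thus held a larger share of the null reads in the other genes too.

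Measured from the annotated gene ends, reads that started within 5 nt of the 5′ end made up 16.1% in f/f and 22.8% in null, and those that ended within 5 nt of the 3′ end were 29.9% and 28.5%. In Snord43 no read fell in either class, since its commonest read ended at position 96 of 108. By gene the picture was broader. The 5′ end share was higher in null in 46 of 54 genes, lower in 4 and equal in 4, with a median difference of 7.79 percentage points. The 3′ end share was lower in null in 39 of 54 and higher in 11. The C box share was higher in null in 33 of 41 genes with both motifs, with medians of 26.4% in f/f and 50.7% in null.

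Snord60, which guides 28S methylation, had a clear difference of this kind. Of its 1195 f/f reads, 67.2% started at the 5′ end and 32.6% ended at the 3′ end. Of its 5465 null reads these were 96.0% and 3.99%. In Snord47 the 5′ end share was 26.2% in f/f and 86.0% in null, and the 3′ end share 71.5% and 12.3%. In Snord33 the 5′ end share was 40.6% and 85.2%, and the 3′ end share 58.6% and 14.4%. Snord49a, chosen after its values were seen, had a 5′ end share of 26.6% and 87.1%. In these 4 genes most of the null reads came from the 5′ side.

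A few genes went the other way or did not move. In Snord45b the 5′ end share was 19.5% in f/f and 7.49% in null, and the 3′ end share 76.9% and 90.7%. In Snord104 reads that ended at the 3′ end were 98.2% in f/f and 97.96% in null, with none at the 5′ end. Its C box starts at position 5, so reads that start 5 nt or more before it lie outside the annotated gene and were not counted. The shares of Snord104 therefore cannot show whether its sides moved. In Snord2 reads that ended at the 3′ end were 94.4% and 96.3%. Snord13, whose commonest read was the last 23 nt of the gene, had a 3′ end share of 83.9% and 89.2%.

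**Figure D5:**
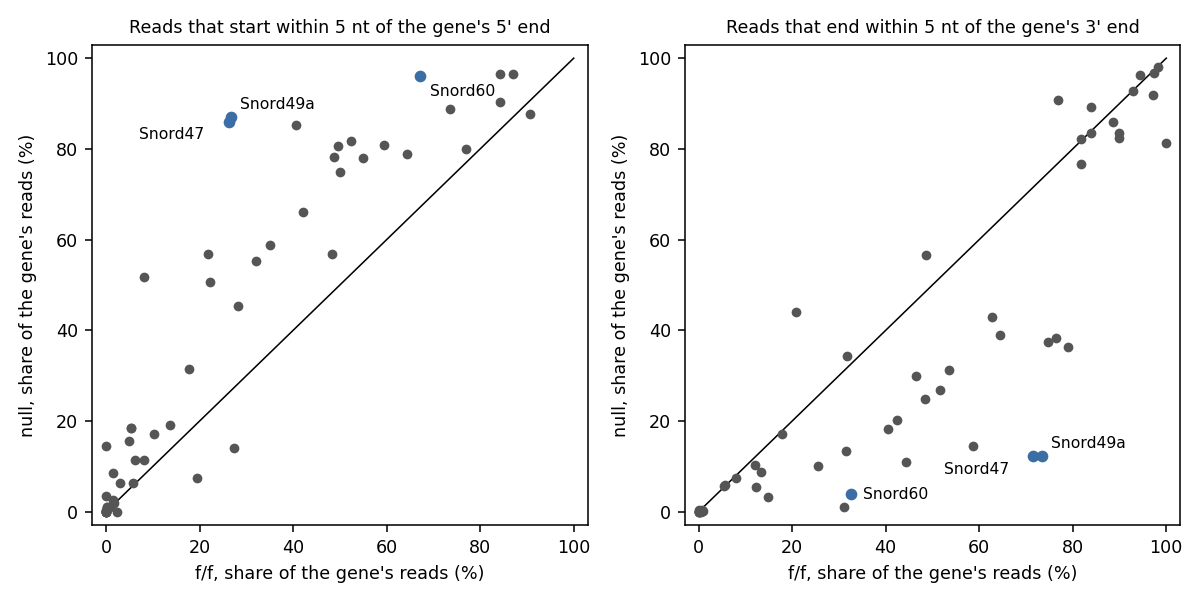
Share of a gene's reads that start within 5 nt of its annotated 5′ end (left) and that end within 5 nt of its 3′ end (right), f/f on the x axis and null on the y axis, in percent, 1 point per annotated gene with at least 100 reads in each library. The line marks equal shares. In the left panel 46 of the 54 annotated genes lie above the line, and in the right panel 39 lie below it.

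Single fragments were compared next, taking the 81 with at least 50 f/f reads, from 39 genes. This choice by f/f reads favours fragments that are high in f/f. Of these, 62 were more than 2-fold higher in null, 11 within 2-fold and 8 more than 2-fold lower. Among all 6554 sequences with as many f/f reads, most of which are not of snoRNAs, 22.3% were higher and 69% lower. Sequences of miRNA hairpins, a class with a null to f/f ratio of 0.0364 in CPM, were not taken out of this set or its length classes. Their number in it was not counted, so the contrast does not set the Snord fragments apart. Counted by gene, 79% of all genes with at least 100 reads were more than 2-fold higher in null. Of the 39 Snord fragments of 24 to 35 nt, 36 were higher and 2 lower, with a median ratio of 6.17, against 34% higher and 52.1% lower among all sequences of that length. Of the 10 of 21 to 23 nt, 2 were higher and 5 lower, with a median ratio of 0.494, against 10.5% higher and 86.8% lower among all. Because these 10 were taken by their f/f reads, they do not stand for the length: over all Snord reads of 21 to 23 nt there were 4553 in f/f and 6014 in null, 2.09-fold higher in null, and 3.25-fold without Snord50a and Snord50b.

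Of those 10, 8 had a ratio below 1. Of these, 6 are listed first, to compare where they lie, followed by 3 fragments that were higher in null. The other two are the Snord50a read printed above and a 23-nt read of Snord47 (ratio 0.442). Capitals mark the D box letters CTGA.
Snord47: gttccattttatttCTGAggtt
Snord60: gattacattataagaCTGAggct
Snord72: gatttcagcatttaaCTGAga
Snord49a: gataactgctcctggCTGAct
Snord65: tgagcctatggttttCTGAag
Snord12: aattgccagttttgtCTGAtg
Snord13: gtgggcacattacccgtCTGAca
Snord45b: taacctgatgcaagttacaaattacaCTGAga
Snord104: ccgggtgatgcgaatcgtaatCTGAgc

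The 6 listed first all end 2 to 4 nt after the D box. The Snord47 fragment (positions 56 to 77) had 81 reads in f/f and 0 in null, at least 17.1-fold lower against a floor of 3 counts in the null library. The Snord60 fragment (positions 55 to 77) had 56 and 0 reads, at least 11.8-fold lower, and that of Snord72 (positions 55 to 75) 54 and 0, at least 11.4-fold lower. The Snord49a fragment (positions 52 to 72) stood at 10.3 CPM in f/f against 3.18 in null (20 reads), a ratio of 0.310 (0.182 to 0.504). That of Snord65 (positions 52 to 72) had 78 and 27 reads, a ratio of 0.547 (0.339 to 0.857), and that of Snord12 (positions 63 to 83) 69 and 37, a ratio of 0.848 (0.553 to 1.28). Snord72 and Snord49a were chosen after their values were seen.

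The other 3 end 2 nt after the D box too. The Snord13 fragment, the last 23 nt of the gene, had 61 f/f and 624 null reads, a ratio of 16.2 (12.4 to 21.4). The 32-nt fragment of Snord45b (positions 36 to 67) had 132 and 2625 reads, a ratio of 31.4 (26.4 to 37.7), the largest of the 81. The 27-nt fragment of Snord104 (positions 44 to 70) had 355 and 1964 reads, a ratio of 8.74 (7.81 to 9.82). A D box end and a length of 23 nt therefore did not go with 1 direction.

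Within a gene the fragments could differ in direction. In Snord60 the 26-nt read from the 5′ end had 421 f/f and 2926 null reads, a ratio of 10.98 (9.92 to 12.2), while the 23-nt read of its D box side had 0 null reads. In Snord65 a 36-nt read at positions 33 to 68 had a ratio of 6.86 (5.07 to 9.43), against 0.547 for its 21-nt read. In Snord47 reads of 18 to 23 nt had a ratio of 0.410 (0.313 to 0.532) and reads of 24 to 35 nt one of 3.42 (2.73 to 4.299). The Snord47 ratio near 1 over all reads was thus a sum of fragments that were lower and fragments that were higher in null.

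The Snord50a fragment of 22 nt (positions 15 to 36) starts just after the C box letters and holds neither box. It had 1975 f/f and 808 null reads, 0.647 (0.595 to 0.702), and was 82.3% of the gene's f/f reads and 82.5% of its null reads, so it held the same part of the gene in both libraries. Its sequence is the same in Snord50b. The 19-nt Snord80 fragment (positions 53 to 71) had 1889 and 2370 reads, a ratio of 1.98 (1.87 to 2.11). None of the printed fragments of the rule-named genes lay in a RefSeq miRNA hairpin of the table used here.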

How the data were processed

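The authors deposited raw counts: each library is a list of read sequences and how often each occurred, without gene names. The build is mm9, per the submitters' processing notes. For aligner and trimming the sources used here give nothing. Reads of at least 18 nt were matched here, in sense and without mismatch, to GENCODE M21 transcripts, and all coordinates are GRCm38 positions of that annotation. A read was counted once in totals and once for each Snord gene that holds it; reads in several Snord genes were 16.6% of the f/f and 5.50% of the null Snord reads. Of the Snord reads, 52.2% in f/f and 54.3% in null also matched a transcript of another gene class. Untemplated bases and mismatches are lost: matching without the last 3 nt added 17.1% of f/f and 21.0% of null reads.

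CPM were computed over all reads of a library. Intervals are exact, at 95%: Clopper-Pearson for shares, and for ratios conditional on the sum of both counts, and a count of 0 was set against a floor of 3 counts. Among genes with at least 100 reads over both libraries, those whose CPM differed by more than 2-fold were counted as past 2-fold. Depth was 9943989 reads (f/f) and 6291599 reads (null). The tools were matplotlib 3.10.9, scipy 1.17.1, pandas 2.3.3 and numpy 2.4.6 under Python 3.11.15. The matching and the intervals were tested on simulated data. Groups follow the genotype labels. The title of the null library ends in the number 2, which the labels do not explain.

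Members and lists were chosen with earlier results of these data known. Named genes were the 10 with most reads in each library, the 5 lowest and 5 highest ratios among genes with at least 100 reads in each, and the leading 2 of each list (processing, 18S, 28S and U6 guides, Prader-Willi and Dlk1-Dio3 regions, and hosts of 3 or more Snord genes); 1 of these genes is not reported here. The classes by boxes, the analysis of single fragments, Snord1b, Snord22, Snord49a, Snord64, Snord72 and Snord85 were chosen after values were seen. Alternatives changed the scale, length window, copy number, matching, end tolerance, minimum reads and genes included.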

Additional observations from a re-analysis of the deposited data

How the results depend on the processing

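The total Snord ratio of 5.72 stayed above 1 under every alternative run. It was 2.36 per read outside miRNA hairpins, 1.55 per read of other snoRNA and snRNA genes and 19.3 per read matching any transcript. By length it was 2.39 (18 to 23 nt), 7.19 (24 to 35 nt) and 5.59 (18 to 35 nt). It was 5.81 for sequences seen at least 2 times, 5.91 without the last 3 nt and 5.46 for reads in no other class. The number of distinct sequences, an unlike measure that was not scaled for depth, had a null to f/f ratio of 1.17. Chosen after seeing the data, the total Snord ratio was 6.09 without Snord50a and Snord50b and 4.84 without Snord43, Snord69 and Snord2. The 63 of 72 genes past 2-fold (79% of all genes) became 38 of 72 outside miRNA hairpins (44.3%) and 19 of 72 per other snoRNA and snRNA read (17.1%). They were 32 of 36 with at least 1000 reads (61.5%) and 32 of 50 at 18 to 23 nt (77.3%). Per read matching any transcript they were 72 of 72 (93%), with at least 50 reads 64 of 74 (74.3%) and at 24 to 35 nt 53 of 58 (93.1%). On reads of 1 Snord gene only they were 62 of 68, a setting for which no share over all genes was computed. Some of these alternatives test fewer genes.

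Per other snoRNA and snRNA read, which divides each gene's ratio by the same factor of 3.698, named genes went from above 1 to below 1 as follows: Snord49b 0.646, Snord65 0.753, Snord80 0.646, Snord12 0.316, Snord15b 0.370, Snord47 0.347 and Snord68 0.511. At 18 to 23 nt these were Snord49b 0.647, Snord65 0.714, Snord4a 0.948, Snord12 0.649 and Snord47 0.410, and the cause was not tested. The intervals of Snord49b (0.397 to 1.026) and Snord4a (0.582 to 1.52) at this length include 1.

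The share of 18 to 23 nt, null minus f/f, was -16.71 points, with a median over genes of -8.85, -12.36 without Snord50a and Snord50b and -22.31 without Snord43, Snord69 and Snord2. The 5′ end difference of 6.66 points was 5.97 within 2 nt, 15.98 within 10 nt, 7.79 as a median over genes, 5.84 at 18 to 35 nt, 23.84 by boxes, 16.54 without Snord43, Snord69 and Snord2 and 13.86 at 18 to 23 nt. The 3′ end difference of -1.41 points was -4.43, -6.52, -3.67, -0.73, -10.32, -3.36 and -0.27 in the same order. No paired analysis was possible because each genotype had 1 library, and no result comes from a test. Depth limits the fragments with 0 null reads, which can be given only as bounds.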
